A study of Mus musculus with 6 samples.

Results

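The extracellular matrix and fibrosis genes were 51 genes chosen by symbol out of 46095 rows of a table of gene counts from mouse kidney. They comprise 10 interstitial collagens, 13 basement membrane genes, the anchoring fibril collagen Col7a1, 6 matrix glycoproteins and elastic fibre genes, 4 proteoglycans, 4 lysyl oxidases, 6 matrix proteases and inhibitors, 3 TGF-beta ligands and 4 genes of mesenchymal cells. All 51 were found in the table, and all 51 passed the filter on low counts. RNA sequencing was done on 6 kidney samples of mice with a C57BL/6 background, 3 with the treatment label DHT (dihydrotestosterone, a potent androgen that is not converted to oestrogen) and 3 with the label control. The strain label names the polycystic ovary syndrome (PCOS) mouse for the controls as well as for the DHT samples, which leaves the treatment label as the difference between the groups. The sources used here do not give age, sex, dose, route or length of treatment. Nor do they say that the 3 samples of a group are from different animals, and the p-values reflect only how far these samples spread, which may be technical. The study's title concerns kidney injury in PCOS, and matrix deposition is one of the changes by which lasting kidney injury is recognised.

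The kidney holds matrix of different kinds. Interstitial collagens (types I, III, V and VI) form fibres between the tubules and are made mainly by fibroblasts and pericytes, and their build-up is the hallmark of fibrosis. Basement membranes are thin sheets of type IV collagen, laminin, nidogen and perlecan under every epithelium and endothelium, and the chains encoded by Col4a3, Col4a4 and Col4a5 form the network of the glomerular filter. TGF-beta is the main inducer of matrix genes, lysyl oxidases cross-link the fibres, and metalloproteinases (Mmp) and their inhibitors (Timp) set the turnover.

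Depth was 15054763 to 19331942 counts per library, and the 51 genes took 0.374% to 0.487% of counts in DHT and 0.557% to 0.665% in control. Timp3, whose groups overlap, weighed heavily in these shares. It alone had 30364, 28662 and 30707 of the 63978, 73303 and 71367 counts of the 51 genes in DHT replicates 1, 2 and 3. In control it had 55124, 50639 and 35966 of 106367, 107625 and 109280. Markers of the labelled tissue were present in every library, such as Lrp2 of the proximal tubule (1808 to 2972 CPM) and Umod of the loop of Henle (2759 to 7598 CPM). CPM, or a count relative to library size, uses library sizes scaled by TMM, a method that adjusts for differences in RNA composition. Some libraries stood apart. In DHT replicate 2, 41 of the 51 genes were higher there than in the other DHT libraries, against 34.5% of all tested genes. Control replicate 3 was the highest control for 33 of the 51 (36.5% of all genes), and control replicate 2 the lowest for 36 (4284 of all 15367 genes tested). Urothelial markers summed to 27.0 CPM in control replicate 3 and to 1.07 to 3.06 CPM elsewhere. DHT replicate 2 had the highest summed CPM of the endothelial markers (961 against 554 to 716 in the other 5 libraries), macrophage markers (383 against 109.6 to 248) and red blood cell markers (70.3 against 2.89 to 37.5), and their part in the results below was not tested. Results are therefore given by library.

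Lower levels in DHT predominated. Loxl4, a lysyl oxidase, and Col7a1, the collagen of anchoring fibrils, fell, while 0 of the 51 genes rose, so that 2 were called where 2.84% of all genes were. The fitted log2 fold change was below 0 for 46 of 51 genes, against 49.7% of all 15367 genes tested, with a median of -0.41 where all tested genes had 0. These 2 calls are at a Benjamini-Hochberg adjusted p of 0.05 in edgeR's quasi-likelihood test over all genes, by which 1.46% of all genes were called lower and 1.38% higher (225 and 212 genes, or 208 and 132 with total counts as the scaling). At an unadjusted p under 0.05, 15 genes were lower (12.0% of all genes) and 0 higher (12.0% of all genes). DESeq2 called 8 lower (5.08% of all genes) and 0 higher (5.56%), and limma-voom called 1, which was lower (2.09% of all genes in either direction). In 9 of the 51 genes every DHT library was below every control library, against 15.0% of all genes, and in 0 was it the reverse, against 14.8%. In bulk RNA, fewer cells that make a transcript and less of it per cell cannot be told apart. The number of genes below 0 ranged from 36 of 50 tested without control replicate 3 to 50 of 51 without DHT replicate 2. The number called was 6 without DHT replicate 2 (all lower, where 3.04% of all genes were called lower) and 2 without control replicate 1 (1.60%). It was 0 without DHT replicate 1 or 3 (0.0695% and 0% of all genes lower) and without control replicate 2 or 3 (0.0319% and 0.359%).

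**Figure D1:**
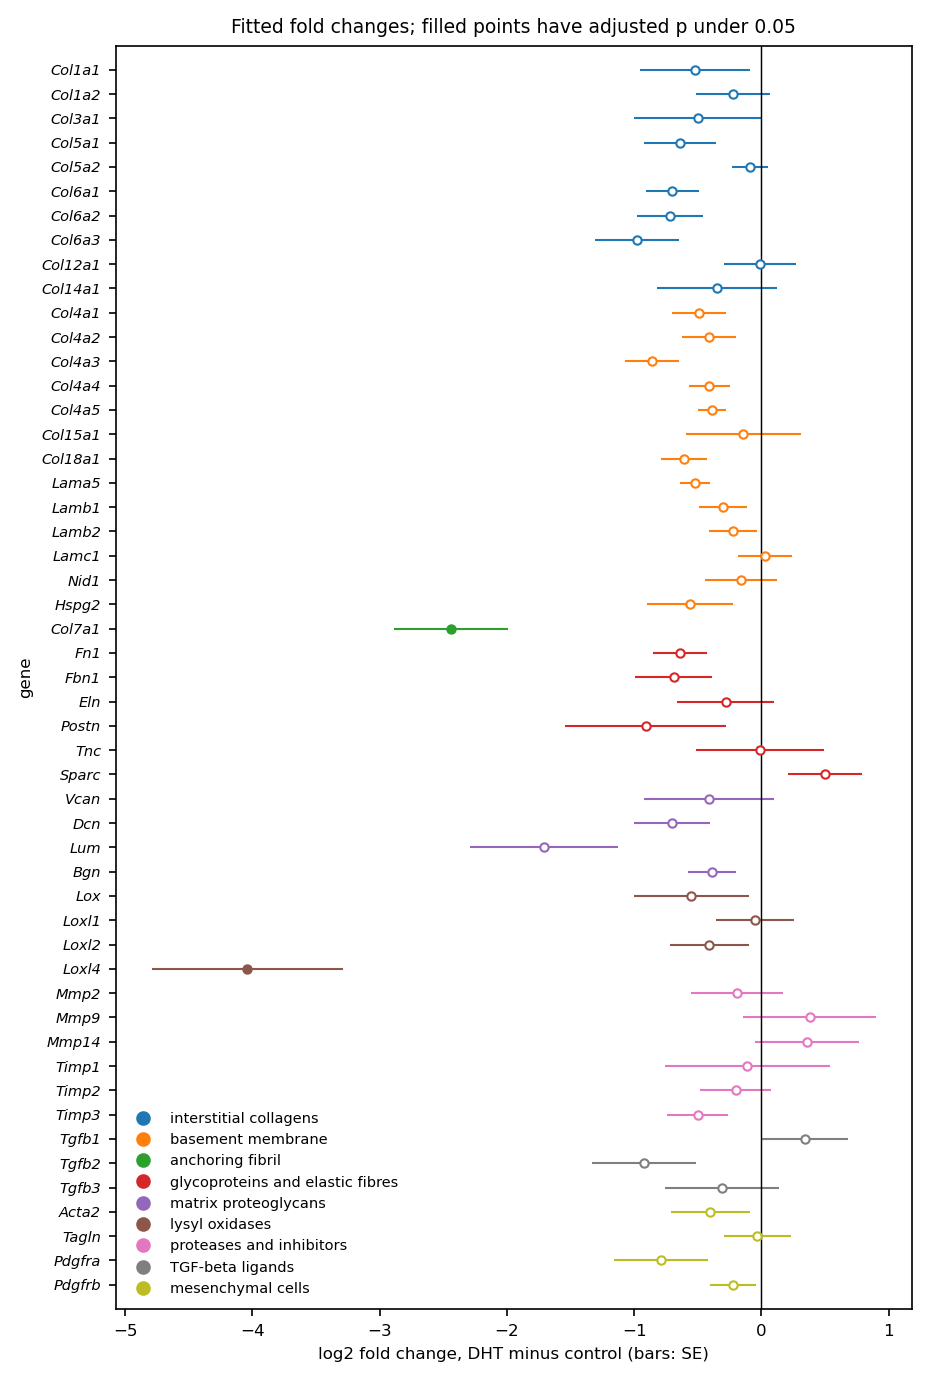
Fitted log2 fold change of each of the 51 genes, DHT minus control (x axis), with bars for the SE and colours for the role of the gene. Filled points passed the adjusted p of 0.05: Loxl4 at -4.04 and Col7a1 at -2.44 lie far left of the other genes, 46 of 51 points lie below 0, and the rightmost is Sparc at 0.50.

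Loxl4 (chromosome 19, 42593982 to 42612813, GRCm38, minus strand) encodes a lysyl oxidase-like enzyme, which oxidises lysines of collagen and elastin so that the fibres can be cross-linked. Library by library, in the order of replicates 1, 2 and 3 here and below, DHT had 15, 26 and 16 counts of it and control 73, 600 and 455. This corresponded to 0.942, 1.63 and 0.949 CPM in DHT and 4.49, 31.1 and 22.5 CPM in control. The DHT libraries lay close together and all below the controls, and control replicate 1 was several times lower than the other controls. The mean was 1.17 ± 0.394 CPM in DHT and 19.4 ± 13.6 CPM in control (SD, n = 3 in each group here and below), which is 16.5-fold lower (edgeR log2 fold change -4.04 ± 0.75 SE, adjusted p = 0.0457). The call held without control replicate 1 (log2 fold change -4.51, adjusted p = 0.00147) and was lost without DHT replicate 1, 2 or 3 (0.141, 0.0887 and 0.162), without control replicate 2 or 3 (0.125 and 0.108), with limma-voom (0.122) and with no filter on low counts (0.129). Several cell type lists likewise had their lowest control sum in replicate 1. Loop of Henle markers summed to 4168, 6516 and 11238 CPM in control and 4322 to 5284 CPM in DHT. Endothelial markers summed to 556, 589 and 716 CPM in control and macrophage markers to 111, 165 and 243 CPM. Other lists differed, such as fibroblast and pericyte markers (507, 417 and 618 CPM in control). The part of these cells in the Loxl4 result was not tested.

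Col7a1 (chromosome 9, 108953586 to 108984875, plus strand) encodes the collagen that ties epithelial basement membranes to the fibres beneath them. It had 29, 10 and 14 counts in DHT and 64, 116 and 158 in control. Its level was 1.82, 0.626 and 0.831 CPM in DHT and 3.94, 6.02 and 7.82 CPM in control, again with no overlap. Unlike most of the 51 genes, Col7a1 was lowest, not highest, in DHT replicate 2. From 5.92 ± 1.94 CPM in control it fell 5.41-fold to 1.09 ± 0.640 CPM (edgeR log2 fold change -2.44 ± 0.45, adjusted p = 0.0371). The log2 fold change of Col7a1 stayed between -2.17 and -3.01 whichever library was left out. Its call held without DHT replicate 2 (0.0289) and control replicate 1 (0.0287). The adjusted p was 0.0555 without DHT replicate 1 and 0.145 without DHT replicate 3, and 0.129 and 0.0894 with control replicate 2 or 3 left out, so the call was lost in each case.

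The bases before the RefSeq start of these 2 genes are shown because they are the members that passed the test. The bases between the GENCODE starts of Col4a3 and Col4a4 are shown because these neighbours start back to back and were both lower in every DHT library. All are from RefSeq sequence of GRCm38.p6, which holds a promoter entry for 33 of the 51 genes, with none for Col4a3. The Loxl4 stretch is chr19:42612807-42613056 (minus strand), the Col7a1 stretch chr9:108953336-108953585 (plus strand), both 250 bases, and the stretch between Col4a4 and Col4a3 chr1:82586850-82586920 (plus strand), 71 bases. The RefSeq start of Loxl4 lies just inside the GENCODE range of the gene given above, so its stretch overlaps that range at the edge. Capitals mark matches on either strand to any of 5 motifs, none of which contains another: the GC box (GGGCGG), the CCAAT box (CCAAT), the TATA box (TATAAA), the E-box (CACGTG) and a half-site of the androgen receptor (AGAACA).
Loxl4: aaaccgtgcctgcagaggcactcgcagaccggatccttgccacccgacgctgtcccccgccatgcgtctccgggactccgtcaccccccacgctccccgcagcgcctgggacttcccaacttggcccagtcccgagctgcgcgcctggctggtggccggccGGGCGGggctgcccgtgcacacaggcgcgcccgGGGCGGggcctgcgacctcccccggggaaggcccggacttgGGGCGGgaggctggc
Col7a1: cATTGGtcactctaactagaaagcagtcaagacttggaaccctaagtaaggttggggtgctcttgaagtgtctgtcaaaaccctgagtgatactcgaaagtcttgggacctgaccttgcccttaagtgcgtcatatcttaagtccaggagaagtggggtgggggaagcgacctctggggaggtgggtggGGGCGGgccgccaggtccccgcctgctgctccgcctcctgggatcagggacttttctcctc
Col4a4 to Col4a3: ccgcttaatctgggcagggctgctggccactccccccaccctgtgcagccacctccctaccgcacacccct

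The Loxl4 stretch held 3 GC boxes and the Col7a1 stretch 1 GC box and 1 CCAAT box, written there as its reverse complement. Among 32851 promoter windows of 250 bases, 32.7% held a GC box and 33.8% a CCAAT box, so neither is rare. The letters of the E-box (6.0% of windows), the androgen receptor half-site (16.1%) and the TATA box (12.4%) were not in these 2 windows. The 71 bases between Col4a4 and Col4a3 held none of the 5, where 20.7% of windows of that length hold a GC box and 13.3% a CCAAT box. A match of letters is a description and does not show that a factor binds there.

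**Figure D2:**
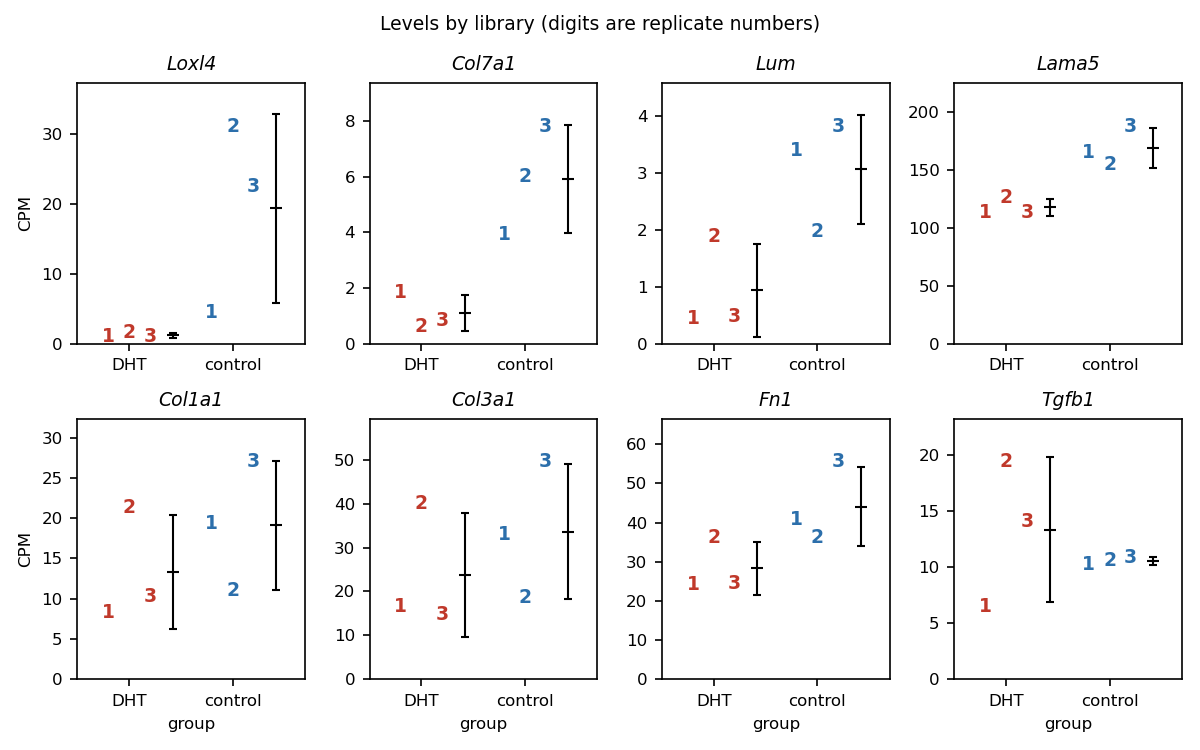
CPM (y axis, from 0) of 8 genes in DHT and control; digits are replicate numbers, and the black bar is the mean with the SD over 3 libraries. The groups stand apart for Loxl4, Col7a1, Lum and Lama5, while in Col1a1 and Col3a1 DHT replicate 2 lies among the controls and control replicate 2 among the DHT libraries.

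Interstitial collagens had fitted values below 0 in all 10 genes and 0 calls, where 2.84% of all genes were called. In 0 of 10 were the groups free of overlap, where DHT lay lower throughout in 15.0% of all genes. Col1a1 and Col1a2 encode the chains of type I collagen, the main fibre of scar tissue. Col1a1 was at 8.29, 21.4 and 10.3 CPM in DHT and 19.3, 11.0 and 27.0 CPM in control, so that DHT replicate 2 exceeded 2 of the controls. Its log2 fold change was -0.52 ± 0.43 (edgeR adjusted p = 0.501). Col1a2 was at 32.2, 48.8 and 37.7 CPM in DHT and 47.8, 28.3 and 62.0 CPM in control, with control replicate 2 the lowest of all 6 libraries (-0.22 ± 0.29, adjusted p = 0.679). Col3a1, whose type III collagen accompanies type I, was at 16.5, 40.0 and 14.8 CPM in DHT and 33.0, 18.6 and 49.6 CPM in control. The same 2 libraries, DHT replicate 2 and control replicate 2, crossed over (-0.50 ± 0.50, adjusted p = 0.579). Without DHT replicate 2 the log2 fold changes were -1.05 for Col1a1 and -1.12 for Col3a1, and without control replicate 3 they were -0.19 and -0.12, none of them passing the test.

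Type VI collagen, a beaded filament around cells, was lower in fitted value but short of the threshold in edgeR. Col6a1 was at 11.9995, 15.0 and 11.5 CPM in DHT and 24.1, 14.9 and 23.8 CPM in control, where only control replicate 2 reached the DHT range (edgeR log2 fold change -0.70 ± 0.21, adjusted p = 0.0981). Col6a3 was at 13.4, 12.7 and 9.91 CPM in DHT and 30.5, 12.3 and 28.3 CPM in control (-0.98 ± 0.33, adjusted p = 0.126). DESeq2 called both lower (adjusted p = 0.0448 and 0.031). Without DHT replicate 2, Col6a2, the remaining chain, was called lower (log2 fold change -1.01, adjusted p = 0.0393), against -0.72 and 0.137 with all libraries. The other interstitial collagens, Col5a1, Col5a2, Col12a1 and Col14a1, had log2 fold changes of -0.64 to -0.01. Of the 10 genes, 9 were highest in DHT replicate 2 among the DHT libraries (34.5% of all genes). Among the controls, 9 were lowest in control replicate 2 (4284 of all 15367 genes tested).

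Basement membrane genes were likewise mostly lower. Of 13 genes, 12 had fitted values below 0, 6 had every DHT library below every control (15.0% of all genes), and 0 were called (2.84% of all genes). Lama5, the laminin alpha chain of the mature glomerular and tubular basement membrane, was at 113, 126 and 113 CPM in DHT and 165, 154 and 187 CPM in control. The spread within each group was small against the gap between them (117 ± 7.38 against 169 ± 17.0 CPM, log2 fold change -0.52 ± 0.12), and the edgeR adjusted p was 0.0595. Lama5 was called without DHT replicate 2 (adjusted p = 0.0396), with no filter on low counts (0.0472) and with DESeq2 (0.00482). Col18a1, which encodes a basement membrane collagen that is the precursor of endostatin, was at 139.7, 189 and 199 CPM in DHT and 249, 235 and 319.7 CPM in control (-0.61 ± 0.18, adjusted p = 0.0939; 0.0244 with DESeq2). Lamb1, Lamb2 and Lamc1 (laminin chains), Nid1 (nidogen), Hspg2 (perlecan) and Col15a1 overlapped between the groups, with log2 fold changes of -0.56 to 0.03.

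Col4a3, Col4a4 and Col4a5 encode the alpha3, alpha4 and alpha5 chains, which assemble into a single network and whose mutation causes Alport nephropathy. Col4a3 (chromosome 1, 82586921 to 82722059) was at 274, 191 and 257 CPM in DHT and 372, 552 and 384 CPM in control, a log2 fold change of -0.86 ± 0.21 (edgeR adjusted p = 0.0613). Every DHT library lay below every control, with DHT replicate 2 the lowest. Its call was made with total counts (adjusted p = 0.0333), with no filter on low counts (0.0147) and with DESeq2 (0.00185). Of its exonic bases, 5.65% are shared with C430014B12Rik on the other strand, and since strand use in counting is not given, those reads cannot be told apart. Col4a4 (chromosome 1, 82448423 to 82586849), its neighbour, was at 293, 214 and 289 CPM in DHT and 369, 349.8 and 335 CPM in control (-0.41 ± 0.16, adjusted p = 0.166). Col4a5 was at 48.9, 45.7 and 41.5 CPM in DHT and 61.7, 54.4 and 62.0 CPM in control (-0.39 ± 0.11, adjusted p = 0.092). In all 3 genes the groups did not overlap.

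Col4a1 and Col4a2 encode the alpha1 and alpha2 chains found in nearly all basement membranes. They lie back to back on chromosome 8 and share 22 bases at their annotated starts. Col4a1 was at 134, 244 and 185 CPM in DHT and 245, 247 and 301 CPM in control, with DHT replicate 2 level with the lowest controls (-0.49 ± 0.21, edgeR adjusted p = 0.204). Without that library Col4a1 was called lower (-0.73, adjusted p = 0.0481). Col4a2 was at 101, 185 and 137 CPM in DHT and 178, 174 and 211 CPM in control, where DHT replicate 2 passed 2 of the controls (-0.41 ± 0.21, adjusted p = 0.27). The ratio of Col4a1 to Col4a2 in CPM was 1.32, 1.32 and 1.35 in DHT and 1.38, 1.42 and 1.42 in control. That of Col4a3 to Col4a4 was 0.935, 0.893 and 0.890 in DHT and 1.01, 1.58 and 1.15 in control. Both ratios were lower in every DHT library than in every control, and neither was tested.

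DHT replicate 2 had the lowest Col4a3 and Col4a4 and the highest Col4a1 and Col4a2 of its group. The summed CPM of Col4a3, Col4a4 and Col4a5 was 2.62, 1.05 and 1.82 times that of Col4a1 and Col4a2 in DHT, and 1.90, 2.27 and 1.53 times in the controls, which overlap. Podocytes, the cells that make the alpha3, alpha4 and alpha5 chains of the glomerulus, had 8 of 8 markers tested, with none at 0. By the edgeR test 0 were lower and 0 higher, where 1.46% and 1.38% of all genes were. At an unadjusted p under 0.05, 0 were lower and 1 higher, where 12.0% of all genes went each way. Their summed CPM was 613, 888 and 707 in DHT and 774, 682 and 627 in control, with DHT replicate 2 the highest. The part of these cells in the type IV collagen values was not tested.

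**Figure D3:**
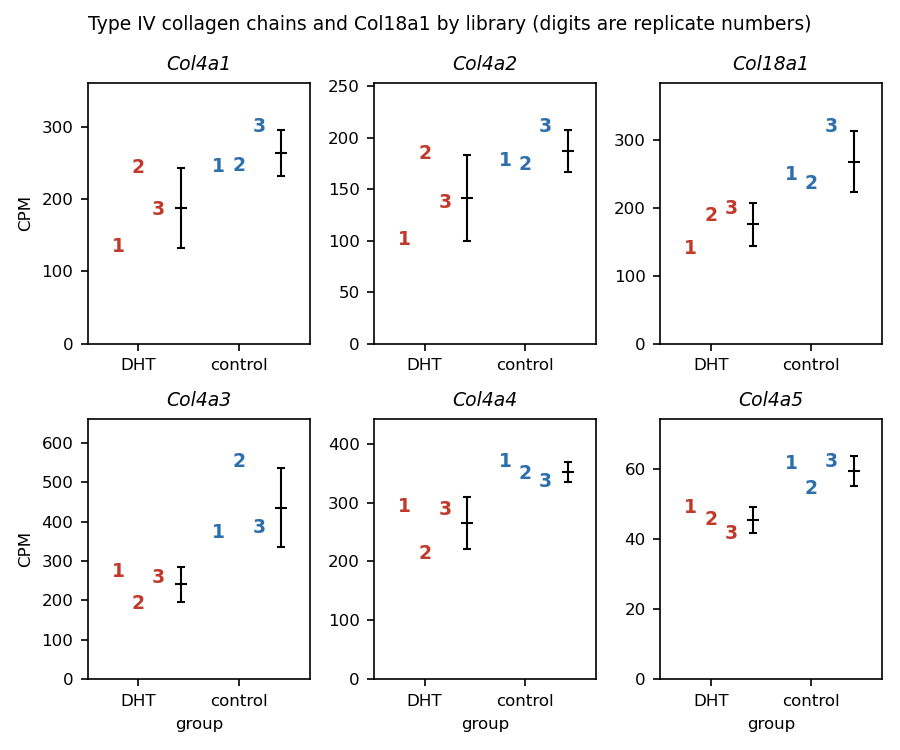
CPM (y axis, from 0) of the 5 type IV collagen chains and Col18a1 in DHT and control; digits are replicate numbers, black bars the mean and SD over 3 libraries. DHT replicate 2 is the highest DHT library for Col4a1 and Col4a2 and the lowest for Col4a3 and Col4a4.

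Set against each other by library, interstitial collagens and basement membrane genes did not differ in their shift beyond the spread between libraries. The median over the 10 interstitial collagens of log2(CPM + 0.5) minus each gene's control mean was -0.72, 0.04 and -0.67 in DHT and 0.16, -0.58 and 0.26 in control. For the 13 basement membrane genes it was -0.57, -0.11 and -0.44 in DHT and -0.07, -0.15 and 0.19 in control. Both lists were low in DHT replicates 1 and 3, and the interstitial list was also low in control replicate 2, where the basement membrane list was not. The difference between the medians, interstitial minus basement membrane, was -0.16, 0.15 and -0.23 in DHT and 0.23, -0.43 and 0.07 in control, a mean of -0.08 ± 0.20 (SD) against -0.04 ± 0.35. The groups overlap in it, and the difference of their means, -0.03, is smaller than either SD. That difference rested on single libraries: it was -0.30 without control replicate 2 (SD 0.18 in DHT and 0.16 in control), -0.09 and 0.13 without control replicates 3 and 1, and 0.01, -0.15 and 0.04 when DHT replicates 1, 2 and 3 were left out. In summed CPM, which the most abundant genes dominate, the basement membrane genes were at 1447, 1734 and 1652 in DHT and 2119, 2212 and 2463 in control, with no overlap. The interstitial collagens were at 184, 271 and 188 in DHT and 335, 193 and 309 in control, with overlap. Interstitial collagens amounted to 12.7%, 15.6% and 11.4% of the basement membrane sum in DHT and 15.8%, 8.72% and 12.5% in control.

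**Figure D4:**
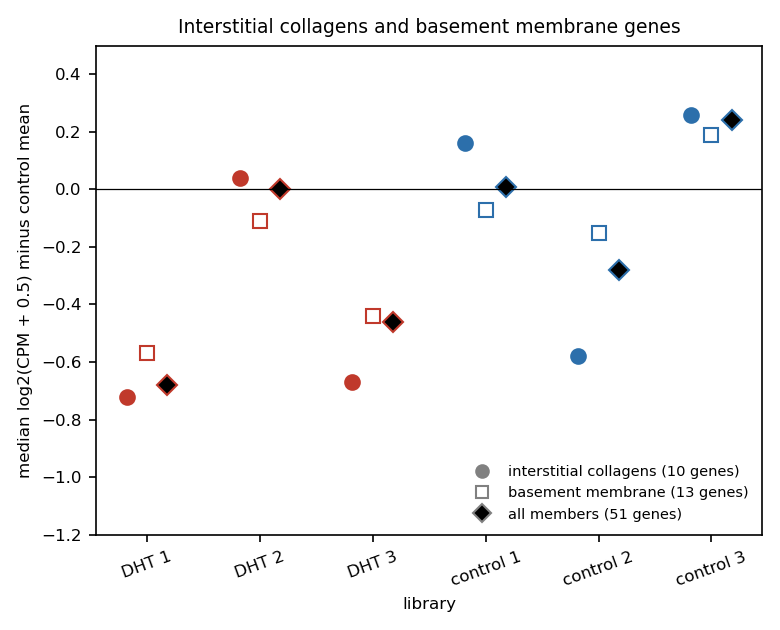
Median over each list of log2(CPM + 0.5) minus the control mean of the gene (y axis) in each of the 6 libraries (x axis), red for DHT and blue for control. The interstitial collagens (circles) swing from -0.72 to 0.26 and are low in control replicate 2, while the basement membrane genes (squares) lie below all controls in DHT replicates 1 and 3 only. For all 51 genes (diamonds), DHT replicate 2 is at 0 and control replicate 2 at -0.28.

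Glycoproteins and elastic fibre genes held 0 calls among 6, where 2.84% of all genes were called. Fn1, or fibronectin, an early component of provisional and scar matrix, was at 24.3, 36.1 and 24.5 CPM in DHT and 40.7, 36.1 and 55.5 CPM in control, with DHT replicate 2 level with control replicate 2 (edgeR log2 fold change -0.64 ± 0.21, adjusted p = 0.119). Without DHT replicate 2 Fn1 was called lower (-0.86, adjusted p = 0.0356). Fbn1, the fibrillin of elastic microfibrils, was at 6.35, 12.1 and 7.12 CPM in DHT and 17.0, 9.65 and 14.7 CPM in control (-0.69 ± 0.30, adjusted p = 0.206). Of its exonic bases, 20.14% are shared with Gm9913 on the other strand. Eln (elastin), Postn (periostin), Tnc (tenascin C) and Sparc ranged from -0.91 to 0.50, and all 6 genes were highest in DHT replicate 2 among the DHT libraries. Postn, a matricellular protein typical of fibrosis, stayed at or below 3.12 CPM in every library.

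Among the proteoglycans, which coat and space collagen fibrils, Lum (lumican) showed the widest gap. It was at 0.440, 1.88 and 0.475 CPM in DHT, from 7, 30 and 8 counts, and at 3.38, 1.97 and 3.81 CPM in control. DHT replicate 2 came close to control replicate 2, and the groups did not overlap (edgeR log2 fold change -1.71 ± 0.58, adjusted p = 0.124). Lum was called lower without DHT replicate 2 (-2.73, adjusted p = 0.0163) and with DESeq2 (0.0459). Dcn (decorin) was at 19.2, 25.6 and 17.2 CPM in DHT and 25.8, 24.2 and 50.5 CPM in control (-0.70 ± 0.30, adjusted p = 0.214). Bgn (biglycan) and Vcan (versican) had log2 fold changes of -0.39 and -0.41.

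The lysyl oxidases other than Loxl4 did not pass. Loxl2, which acts on type IV collagen, was at 5.21, 11.6 and 6.94 CPM in DHT and 13.2, 8.35 and 9.94 CPM in control (edgeR log2 fold change -0.41 ± 0.31, adjusted p = 0.458). Lox and Loxl1 had log2 fold changes of -0.55 and -0.05. Per kilobase of exon, Loxl4 stood at a mean of 4.60 CPM in control, above Loxl1 (3.37), Loxl2 (1.94) and Lox (0.813). In DHT it stood at 0.278 CPM, below Loxl1 (3.24), Loxl2 (1.46) and Lox (0.555). The control order rests on replicates 2 and 3, where Loxl4 was at 31.1 and 22.5 CPM. In control replicate 1 it was at 4.49 CPM, below Loxl1 (16.7 CPM) and Loxl2 (13.2 CPM).

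Matrix turnover genes held 0 calls among 6 (2.84% of all genes were called), and the groups overlapped in each. Timp3, a matrix-bound inhibitor of metalloproteinases that the kidney expresses strongly, had by far the highest level of the 51 genes, at 319 CPM per kilobase in control against 43.7 for Col4a3, the next. It was at 1908, 1795 and 1822 CPM in DHT and 3389, 2627 and 1779 CPM in control. The DHT libraries lay together at the level of the lowest control, control replicate 3, while control replicates 1 and 2 were higher (edgeR log2 fold change -0.50 ± 0.24, adjusted p = 0.246). Of its exonic bases, 21.28% are shared with Syn3 on the other strand. Mmp14, a membrane-bound collagenase, was at 14.1, 41.3 and 16.3 CPM in DHT and 21.7, 15.2 and 19.1 CPM in control, with 1 high library, DHT replicate 2 (0.36 ± 0.41, adjusted p = 0.633; -0.30 without it). Timp1, an inhibitor that is induced in injured kidney, had 2 to 16 counts per library. That gave 0.126, 1.002 and 0.415 CPM in DHT and 0.553, 0.519 and 0.594 CPM in control (-0.11 ± 0.65, adjusted p = 0.929), and at this depth a difference was not detectable. Without DHT replicate 2 the value was -1.01, also short of the threshold. Mmp2, Mmp9 and Timp2 had log2 fold changes of -0.20 to 0.38.

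The TGF-beta ligands held 0 calls among 3, where 2.84% of all genes were called. Tgfb1, the main profibrotic ligand, was at 6.53, 19.4 and 14.1 CPM in DHT and 10.2, 10.6 and 10.8 CPM in control. The controls were nearly equal, and the DHT libraries lay on both sides of them (edgeR log2 fold change 0.34 ± 0.34, adjusted p = 0.579). Without DHT replicate 2 the value was -0.04. Tgfb2, another ligand, was at 1.95, 4.76 and 3.26 CPM in DHT and 3.63, 8.97 and 6.28 CPM in control (-0.92 ± 0.41, adjusted p = 0.217). Tgfb3 had a log2 fold change of -0.31.

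Genes of fibroblasts, pericytes and smooth muscle held 0 calls among 4, where 2.84% of all genes were called. Acta2, the smooth muscle actin used to mark myofibroblasts, was at 31.2, 49.0 and 42.6 CPM in DHT and 39.0, 41.8 and 81.1 CPM in control (edgeR log2 fold change -0.40 ± 0.31, adjusted p = 0.464). The value rested on control replicate 3, without which it was 0.01. Pdgfra, a growth factor receptor of fibroblasts, was at 15.8, 13.4 and 14.7 CPM in DHT and 33.0, 11.4 and 31.4 CPM in control, with control replicate 2 below every DHT library (-0.79 ± 0.37, adjusted p = 0.245). Pdgfrb, a receptor of pericytes, and Tagln, a smooth muscle protein, had log2 fold changes of -0.22 and -0.03. Of the exonic bases of Tagln, 62.42% are shared with Gm48529 on the other strand. The wider list of 14 fibroblast and pericyte markers had 12 tested, 0 higher and 0 lower by edgeR (1.38% and 1.46% of all genes), and none at 0. At an unadjusted p under 0.05 it had 1 lower (Lum, itself among the 51) and 0 higher, where 12.0% of all genes went each way. Its summed CPM was 438 to 521 in DHT and 417 to 618 in control. Of 8 vascular smooth muscle markers, Smtn was called lower (74.1 ± 11.2 against 126 ± 20.03 CPM, -0.76 ± 0.16, adjusted p = 0.0453), and their summed CPM was 173 to 229 in DHT and 226 to 346 in control. Smtn kept its call without DHT replicate 2 (0.0193) and lost it without each of the other 5 libraries. The call was also lost with total counts (adjusted p = 0.0635) and with limma-voom (0.0521).

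Mesangial and endothelial cells also make matrix. Among markers of mesangial, juxtaglomerular and endothelial cells, 2 genes were called higher in DHT and 0 lower, where 1.38% and 1.46% of all genes were. Of 6 mesangial and juxtaglomerular markers, 4 were higher at an unadjusted edgeR p under 0.05 and 0 lower, where 12.0% of all genes went each way. Their median log2 fold change was 0.86, and none was at 0. Their summed CPM, which the most abundant markers dominate, was 261, 804 and 422 in DHT and 169.8, 104 and 90.5 in control, with no overlap. Of the 6 markers, 2 had fitted values below 0, and in 2 every DHT library was above every control. The median by library, taken as for the interstitial collagens above, was 0.03, 1.25 and 0.89 in DHT. In control it was 0.15, -0.09 and -0.12, so that the groups overlap in it. Akr1b7, a marker of renin cells, was called higher (8.09 ± 2.59 against 2.74 ± 0.684 CPM, edgeR log2 fold change 1.56 ± 0.32, adjusted p = 0.0418). Of 10 endothelial markers, 3 had fitted values below 0. At an unadjusted edgeR p under 0.05, 1 was higher and 0 lower, where 12.0% of all genes went each way. The same median by library was -0.2, 0.69 and -0.26 in DHT and -0.11, -0.05 and 0.22 in control, which overlap. The 1 higher marker was Ehd3, a gene of glomerular endothelium, also called higher (67.5 ± 8.49 against 39.97 ± 1.08 CPM, 0.76 ± 0.12, adjusted p = 0.0261). Both calls were lost with total counts (0.0635 for Akr1b7 and 0.0589 for Ehd3), and without DHT replicate 1 or 3 or control replicate 2 or 3. The part of all these cell types in the matrix gene values was not tested.

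**Figure D5:**
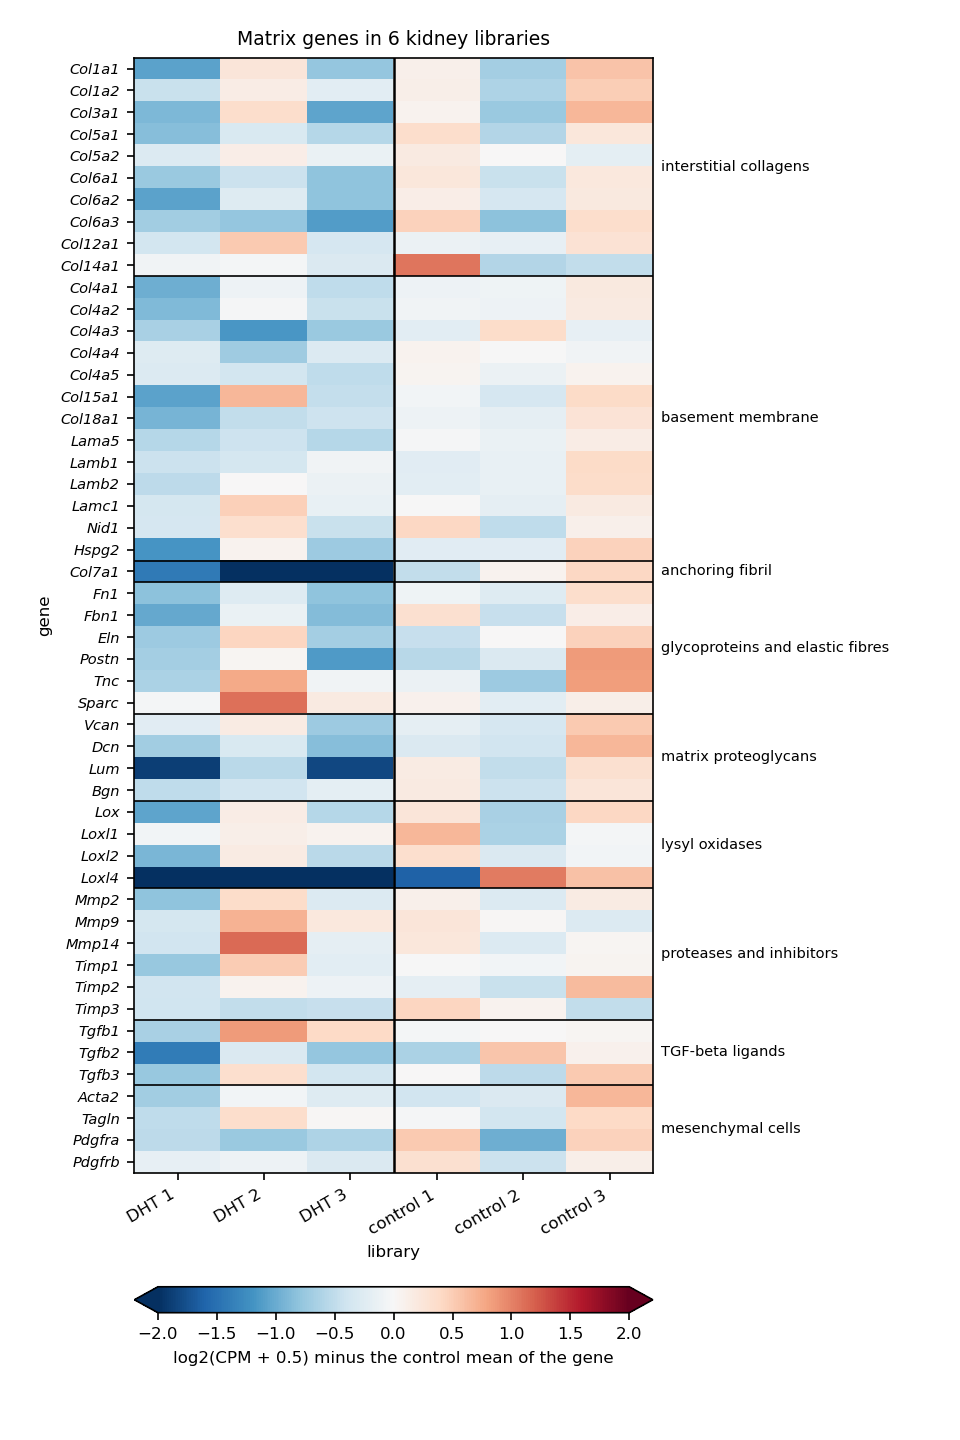
Each cell is log2(CPM + 0.5) of a gene in a library minus the control mean of that gene, blue for lower and red for higher, with colours capped at 2 in either direction; rows are the 51 genes by role and columns the 6 libraries. Loxl4 and Col7a1 are dark blue across DHT, and the basement membrane block is pale blue in most DHT cells. DHT replicate 2 is paler or red in most rows where DHT replicates 1 and 3 are blue. Exceptions include Col4a3, Col4a4, Col7a1 and Pdgfra, where it is the lowest DHT library.

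The wider matrix pathway was read from 7 lists with 171 genes in the table, of which 141 were tested. In those lists 3 genes were called lower and 1 higher, where 1.46% and 1.38% of all genes were. Npnt (nephronectin), a basement membrane ligand of integrin alpha8 beta1, was at 104, 111 and 120.2 CPM in DHT and 193, 409 and 507 CPM in control, with no overlap (112 ± 8.09 against 369.6 ± 160.4 CPM, edgeR log2 fold change -1.72 ± 0.32, adjusted p = 0.0405). As for Loxl4 and Col7a1, control replicate 1 was the lowest control. With no filter on low counts its adjusted p was 0.0753. Npnt was the 1 call among 17 tested laminins and other basement membrane proteins, 12 of which had fitted values below 0. Its edgeR adjusted p no longer passed with any of 5 libraries left out: 0.124, 0.0624 and 0.145 without DHT replicate 1, 2 or 3, and 0.140 and 0.0894 without control replicate 2 or 3.

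Integrins and collagen receptors, by which cells hold matrix, had 2 of 23 called lower and 0 higher, where 1.46% and 1.38% of all genes were. Itgb6, an epithelial integrin chain whose alphav beta6 dimer releases active TGF-beta from its latent complex, was at 36.9, 35.6 and 32.0 CPM in DHT and 92.5, 157 and 117 CPM in control (34.9 ± 2.54 against 122 ± 32.7 CPM, edgeR log2 fold change -1.81 ± 0.19, adjusted p = 0.0113). It lost its call without DHT replicate 1 (0.053) or DHT replicate 3 (0.0943) and kept it without each of the other 4. Itga6, a laminin receptor chain, was at 58.9, 124 and 71.8 CPM in DHT and 223, 277 and 189 CPM in control (-1.44 ± 0.29, adjusted p = 0.0453). Its call was lost with total counts (0.063) and with no filter on low counts (0.0652). It held without DHT replicate 2 and was lost (adjusted p 0.110 and 0.164) without DHT replicate 1 or 3, and (0.0799, 0.145 and 0.0913) without control replicate 1, 2 or 3.

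Plat, the tissue plasminogen activator, which starts the plasmin cascade that degrades matrix, was the 1 gene called among 21 further proteases and inhibitors (2.84% of all genes were called). It rose from 62.1, 45.5 and 61.3 CPM in control to 89.0, 119.9 and 110.3 CPM in DHT (56.3 ± 9.35 against 106 ± 15.8 CPM, edgeR log2 fold change 0.92 ± 0.16, adjusted p = 0.0345). The call was lost with total counts (adjusted p = 0.0656), without DHT replicate 1 or 3 (0.0646 and 0.133), and without control replicate 2 or 3 (0.129 and 0.0722).

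The other 4 lists had 0 calls by edgeR in either direction, where 2.84% of all genes were called. For the counts that follow, 49.7% of all genes had fitted values below 0. At an unadjusted p under 0.05, 12.0% of all genes were lower and 12.0% higher. Of 11 other collagens tested, 9 had fitted values below 0, with a median of -0.68, and 4 were lower and 0 higher at an unadjusted p under 0.05. The gene with the smallest p there was Col8a1, a short-chain collagen of vessels, at 2.39, 6.70 and 5.28 CPM in DHT and 13.3, 13.4 and 8.90 CPM in control (-1.31 ± 0.36, edgeR adjusted p = 0.0799). It was called lower without DHT replicate 2 (-1.63, adjusted p = 0.0362) and with DESeq2 (0.0077). Collagen folding and modification genes had a median of -0.12 over 22 genes, 5 lower and 1 higher at an unadjusted p under 0.05. P3h2, a prolyl hydroxylase that acts on type IV collagen, led them at 71.3, 83.5 and 95.4 CPM in DHT and 119.8, 121 and 146 CPM in control (-0.63 ± 0.14, adjusted p = 0.0557). It was called with no filter on low counts (0.0237) and with DESeq2 (0.00498).

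TGF-beta receptors, transducers and targets had a median of -0.05 over 25 genes, 14 of them below 0 (49.7% of all genes). At an unadjusted p under 0.05, 5 were lower and 3 higher, where 12.0% of all genes went each way. Smad2, a transducer of TGF-beta signals, was at 50.9, 40.7 and 50.01 CPM in DHT and 33.4, 31.3 and 36.3 CPM in control (0.49 ± 0.13, edgeR adjusted p = 0.0696), with every DHT library above every control. It was called higher without DHT replicate 2 (0.57, adjusted p = 0.0306) and with DESeq2 (0.028). Other elastic fibre and matrix glycoproteins had a median of -0.28 over 22 genes. At an unadjusted p under 0.05, 4 were lower and 0 higher, where again 12.0% of all genes went each way. Ogn (osteoglycin), a small proteoglycan, was at 14.9, 9.46 and 11.0 CPM in DHT and 32.3, 18.8 and 22.5 CPM in control (-1.06 ± 0.24, adjusted p = 0.0565), with no overlap. It was called lower with total counts (0.0473), with no filter on low counts (0.0165) and with DESeq2 (0.00251).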

How the data were processed

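RNA of 6 kidney samples, 3 DHT and 3 control, was sequenced from mRNA libraries. The authors deposited raw counts per gene symbol, with no normalization. HISAT2 2.0 and build mm10 (GRCm38) are named per the submitters' processing notes. No source used here gives the counting tool, annotation or strand setting. Columns were matched to samples by title.

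Genes passing filterByExpr (minimum count 10, minimum total 15), 15367 of 46095 rows, were scaled by TMM and fitted in R 4.3.3 with edgeR 4.0.16 (quasi-likelihood with the robust option, 1 term for treatment). Adjustment was by Benjamini-Hochberg over all tested genes, with a threshold of 0.05. SE values are those the F statistic implies. The code was tested on simulated data. Medians by list use log2(CPM + 0.5).

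The members and lists were chosen with earlier results of these data known. Values per library are given for each called member, the 2 members of each role with the smallest p, and Col1a1, Col1a2, Col3a1, Col4a1 to Col4a5, Fn1, Loxl4, Acta2, Tgfb1 and Timp1. Of the wider lists, called genes or else the smallest p are named. Col18a1, cell type markers with calls, the cell type sums set beside Loxl4, and members named by fold change alone or as called without a library were chosen after their values were seen.

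Alternatives were RLE size factors, total counts, no filter, at least 1 CPM in 3 libraries, DESeq2 1.42.0, limma-voom (limma 3.58.1), no robust step, a replicate block and leaving out each library. Length and GC corrections (loess, span 0.3) were added after the data were seen. Positions and exonic lengths are from GENCODE M21. Exonic overlap with another gene was found for 19 of the 51 members (opposite strand: 17). The largest such overlap reached 5% of exonic bases or more in 6 members. These are Tagln (62.42%), Timp3 (21.28%), Fbn1 (20.14%), Tgfb3 (7.6%), Col4a3 (5.65%) and Loxl2 (5.57%). By BLAST 2.17.0+, 0 members had a transcript of another gene with 95% identity over 50% of their length.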

Additional observations from a re-analysis of the deposited data

How the results depend on the processing

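The number of members called, 2 in the main analysis, was 8 with DESeq2, 1 with limma-voom, 1 with the length correction, and 0 to 6 when 1 library was left out. The number of all genes called, 437, was 852 with no filter on low counts, 1634 with DESeq2, 245 with the length correction, and 0 to 1224 when 1 library was left out. The cause of these differences was not tested, and each fit that leaves out a library has fewer samples. The length and GC corrections were chosen after seeing the data. Same-numbered libraries of DHT and control did not deviate together (correlations of 0.07, -0.15 and 0.03 for numbers 1, 2 and 3), so the numbers were not taken to pair the samples. With the replicate block, 1 member (Loxl4) and 85 genes were called; with the block and the length correction 0 and 58, and with the block and the GC correction 1 and 82. Loxl4 had an adjusted p of 0.0533 with the length correction, and Col7a1 0.0955 with the replicate block. With the length correction Npnt (0.0523), Itga6 (0.0612), Smtn (0.0551) and Akr1b7 (0.0687) lost their calls too. Under the block Npnt (0.0692), Plat (0.0918) and the cell markers Smtn (0.095), Akr1b7 (0.0959) and Ehd3 (0.0661) also lost their calls, and Ogn gained one (0.0457). Total counts shifted the median of all genes by -0.10 log2 and left every called member lower.

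Signs that turned belonged to values that had not passed. When 1 library was left out, Col1a2 ranged from -0.48 to 0.05 and Acta2 from -0.59 to 0.01 (both highest without control replicate 3). Mmp14 ranged from -0.30 to 0.63 and Tgfb1 from -0.04 to 0.67 (both lowest without DHT replicate 2). Timp1 ranged from -1.01 to 0.34, with 0.34 without DHT replicate 1 and 0.02 without DHT replicate 3. Over 33 named genes and 18 alternatives, 515 of 591 values kept their direction and side of the threshold, 45 lost a call, 25 gained one and 6 changed sign. The difference between interstitial collagens and basement membrane genes, DHT minus control, was -0.03, between -0.04 and 0.13 with other summaries, pseudocounts and scalings, and between -0.30 and 0.13 when 1 library was left out. Genes with few counts, such as Timp1, Mmp9, Vcan and Postn, limit what can be seen at this depth.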
